A study of Mus musculus with 4 samples.

Results

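The 10 core genes of the mammalian circadian clock were followed in ribosome-bound and total RNA of mouse cerebral cortex. They are Clock, Arntl, Per1, Per2, Per3, Cry1, Cry2, Nr1d1, Nr1d2 and Dbp, taken by symbol from the 32531 gene names of the count files, and all 10 passed the filter on low counts. The IP group holds 2 libraries of ribosome-bound RNA from adult Cbln1-TRAP NIDA030 mice, and the INPUT group holds 2 libraries of total RNA from cortex of the same line. In this line the ribosomal protein Rpl10a fused to EGFP is made under Cbln1 sequence, and tagged polysomes were captured from cortex homogenate with anti-EGFP antibodies on magnetic beads. Libraries are numbered 2 and 4 in each group. All 4 come from tagged mice, and RNA that binds the beads without the tag was not measured in them. The labels give neither the sex of the mice, nor how many mice made a library, nor the time of day of collection.

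The clock is a transcriptional feedback loop. CLOCK and ARNTL (also called BMAL1) pair as an activator that binds E-box sequences, and the PER and CRY proteins they induce accumulate and repress that activator. In a second loop the nuclear receptors NR1D1 and NR1D2 (REV-ERB alpha and beta) repress Arntl, against ROR activators, and DBP drives genes that carry D-box sequences. The loop runs in most cells of the body, neurons and glia of cortex included, and the levels of several of these transcripts, those of Per1, Per2, Nr1d1 and Dbp among them, change over the day. A difference between ribosome-bound and total RNA can come, among other sources, from which cells carry the tag or from how much of a transcript ribosomes hold. These cannot be told apart here. In these bulk libraries fewer cells of a type and less RNA per cell cannot be told apart.

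Counts assigned to genes numbered 41334423 and 47567384 in IP 2 and IP 4, and 41385301 and 39750468 in INPUT 2 and INPUT 4. Levels are given as CPM, the counts scaled to library size and to the trimmed mean of M-values (TMM) in edgeR, and 3 counts corresponded to 0.0660 to 0.0790 CPM, a floor that covers counting error only. IP was run on lane 1 and INPUT on lane 2, and group and lane cannot be told apart. Nothing in the labels ties the libraries of a group to separate mice, so the spread that p-values measure is that of these libraries and may be technical. A fit without 1 library leaves 1 library in a group. Its p-values do not measure the spread within that group, and a smaller one there is not stronger evidence. Cbln1, the gene whose sequence drives the tag, stood at 99.3 and 68.7 CPM in IP 2 and IP 4, against 11.9 and 8.55 CPM in INPUT 2 and INPUT 4.

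Of the 10 clock genes, 5 were higher in IP, 2 were lower and 3 did not pass the test. Cry1, Per1, Cry2, Arntl and Nr1d2 rose, Clock and Per3 fell, and Per2, Nr1d1 and Dbp did not pass (quasi-likelihood test of edgeR, p under 0.05 after Benjamini-Hochberg adjustment over 16600 genes). Over the whole table, 23.4% of the genes tested were called higher, 22.4% lower and 45.8% in either direction. Among the 9403 genes tested whose mean lay within the range of the clock genes, 6.45 to 247 CPM, 34.0% were higher, 20.6% lower and 54.6% either. The 7 of 10 called, and the 5 of 10 called higher, are counts of few genes beside these shares, and nothing particular to the clock genes is read from them. In 7 of the 10 the libraries of the groups did not overlap, which also held for 73.0% of all genes tested. The median log2 fold change of the 10 was 0.30, against -0.04 over all genes tested and 0.12 over those of like abundance. That median of the 10 was 0.19 without IP 4, 0.44 without IP 2, 0.13 without INPUT 2 and 0.47 without INPUT 4.

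**Figure D1:**
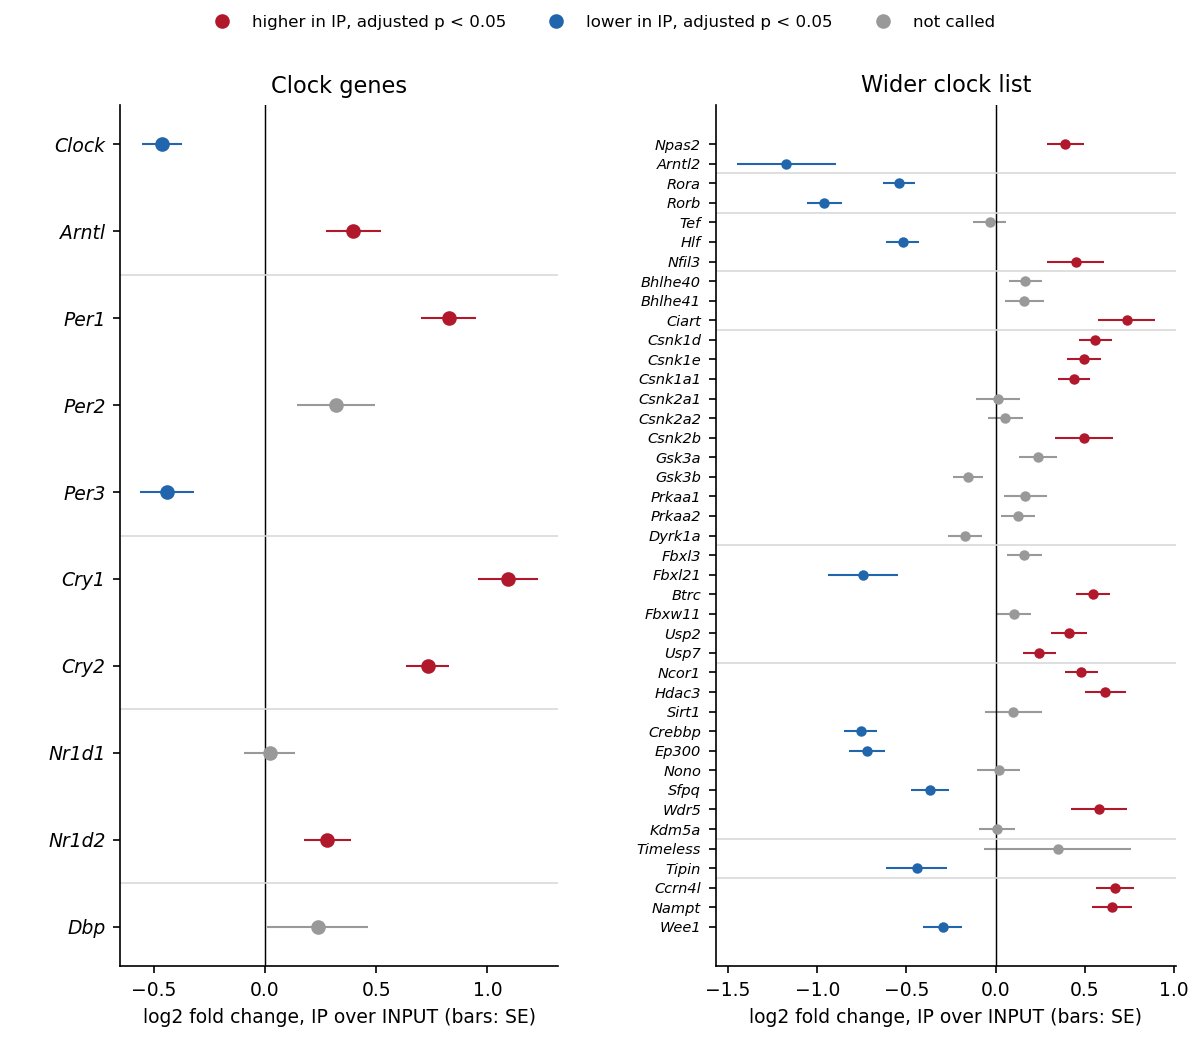
Log2 fold change of IP over INPUT (horizontal axis, bars are the standard error of the edgeR fit) for the 10 clock genes on the left and genes of the wider clock list whose mean reached 1 CPM on the right, in order of role, with grey lines between roles. Cry1, at 1.09, is the farthest right of the clock genes, and Clock and Per3, at -0.46 and -0.44, are the 2 on the left of 0.

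The scaling mattered for the weaker calls. With library sizes alone, in place of TMM, the median of all genes tested was -0.29 and that of the 10 was 0.04, with 2151 genes called higher and 5910 lower, against 3886 and 3719 with TMM. Under that scaling Cry1, Per1 and Cry2 were still higher, with log2 fold changes of 0.84, 0.57 and 0.47, and Clock and Per3 were lower, at -0.72 and -0.70. Arntl and Nr1d2 were no longer called, at 0.14 (adjusted p = 0.387) and 0.02 (adjusted p = 0.894).

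**Figure D2:**
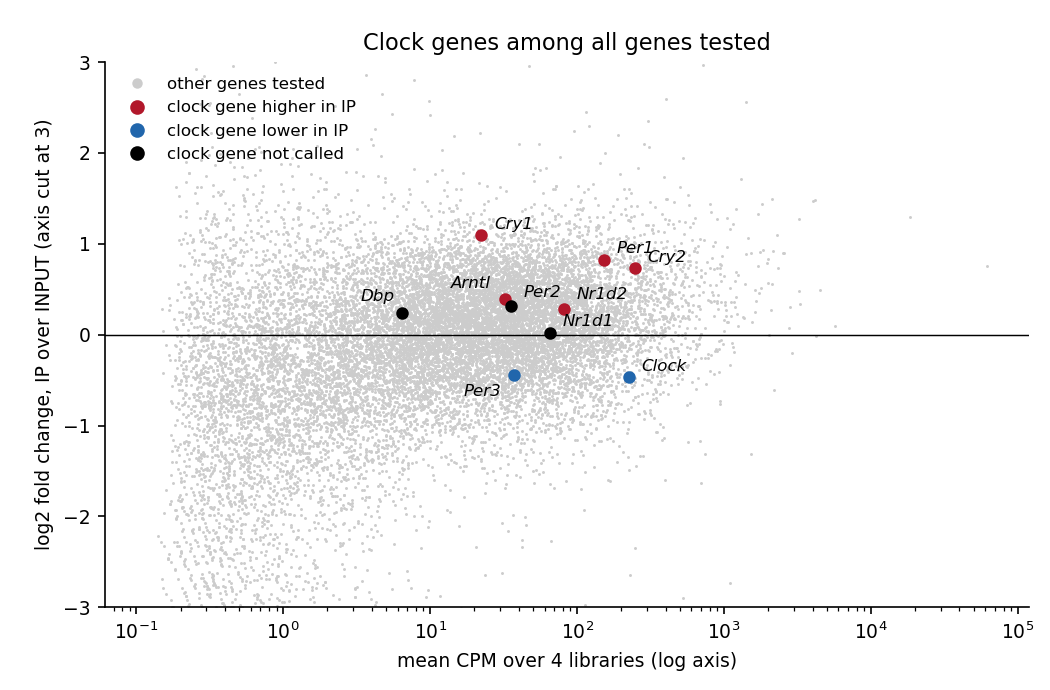
Log2 fold change of IP over INPUT (vertical axis, cut at 3) against mean CPM over the 4 libraries (horizontal log axis) for every gene tested (grey) and the 10 clock genes (coloured by call). The clock genes lie inside the cloud of other genes, with Cry1 highest of the 10 and Clock lowest.

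Both cryptochrome genes rose, and the change in Cry1 was the largest among the 10 clock genes. Cry1 and Cry2 encode flavoproteins related to photolyases that act in mammals as the main repressors of the CLOCK and ARNTL pair. Cry1 had 1140 and 1334 counts in IP 2 and IP 4, or 30.0 and 30.9 CPM, against 635 and 629 counts in INPUT 2 and INPUT 4, or 13.97 and 14.5 CPM. Both IP libraries lay far above both INPUT libraries, and the libraries within a group were nearly equal. Cry1 was 2.14-fold higher in IP, at 1.09 on the log2 scale (SE 0.13, edgeR adjusted p = 2.56e-06). Cry1 (ENSMUSG00000020038.10) spans chr10:85131700-85185064, minus strand, on GRCm38, the assembly also called mm10.

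Cry2 was the most abundant clock gene in IP, with 11428 and 13622 counts or 300.8 and 315 CPM, against 7832 and 8602 counts or 172 and 199 CPM in INPUT. The groups were well apart. It was 1.66-fold higher in IP, at 0.73 on the log2 scale (SE 0.10, edgeR adjusted p = 5.23e-06). Cry2 (ENSMUSG00000068742.11) spans chr2:92403646-92434043, minus strand. The noncoding gene D930015M05Rik overlaps 295 bases of its exons on the opposite strand, and itself had 2 and 1 counts in IP, against 31 and 23 in INPUT.

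The period genes moved apart from each other. Per1, a PAS-domain repressor that is also induced by cyclic AMP and calcium signals, had 6404 and 9467 counts in IP 2 and IP 4, or 169 and 219 CPM. In INPUT 2 and INPUT 4 it had 4401 and 5277 counts, or 96.8 and 122 CPM. Both IP libraries exceeded both INPUT libraries, and library 4 exceeded library 2 in each group. Per1 was 1.77-fold higher in IP, at 0.83 on the log2 scale (SE 0.12, edgeR adjusted p = 2.55e-05). Per1 (ENSMUSG00000020893.17) spans chr11:69095217-69109960, plus strand.

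Per2, the paralog whose loss disrupts rhythms most in mice, had 1233 and 1988 counts in IP 2 and IP 4, or 32.5 and 46.0 CPM, against 1129 and 1648 counts in INPUT 2 and INPUT 4, or 24.8 and 38.1 CPM. IP 2 lay below INPUT 4, so the groups overlapped. Per2 did not pass, at 0.32 on the log2 scale (SE 0.17, edgeR adjusted p = 0.144). It stood at 0.57 without IP 2 and at 0.67 without INPUT 4. Without IP 4 or without INPUT 2 it stood at 0.05. Without a filter on low counts it passed, at 0.34 (adjusted p = 0.0270). Per2 (ENSMUSG00000055866.9) spans chr1:91415982-91459324, minus strand.

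Per3, the period gene that is dispensable for the core oscillation in mice, fell. It had 1109 and 1460 counts in IP 2 and IP 4, or 29.2 and 33.8 CPM, against 1952 and 1844 counts in INPUT 2 and INPUT 4, or 43.0 and 42.6 CPM. The INPUT libraries were nearly equal and both lay above the IP libraries. The log2 fold change was -0.44 (SE 0.12, edgeR adjusted p = 0.00571), and without IP 2 it was -0.32 and not called (adjusted p = 0.0744). Per3 (ENSMUSG00000028957.12) spans chr4:151003652-151044665, minus strand.

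**Figure D3:**
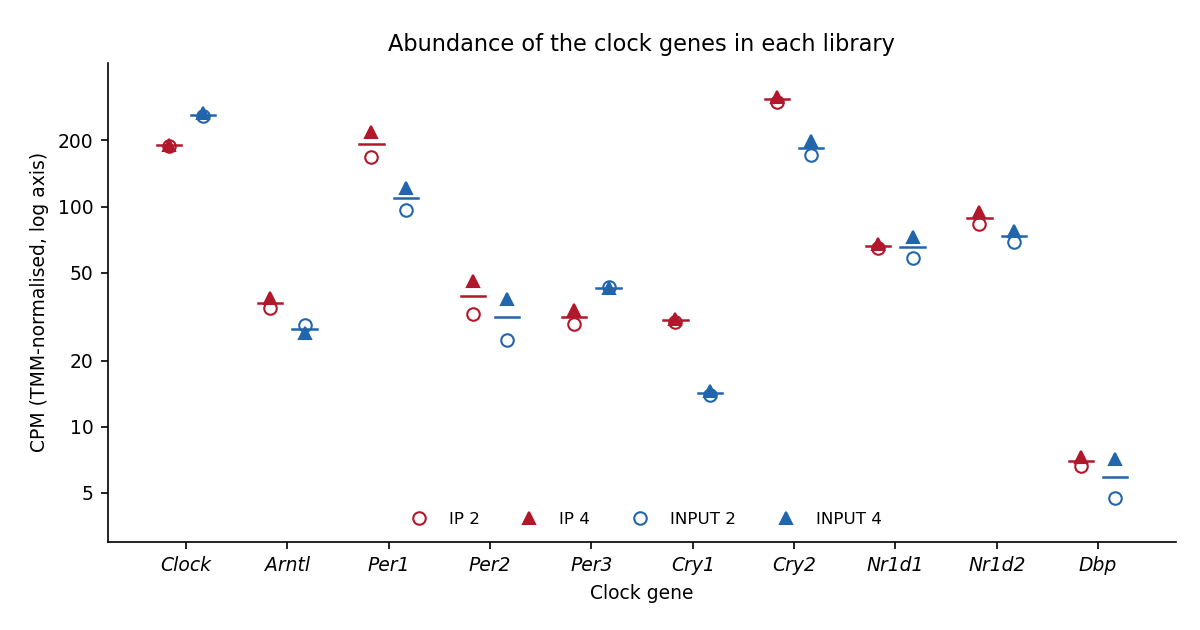
CPM (vertical log axis) of each clock gene in IP 2, IP 4, INPUT 2 and INPUT 4, with IP in red left of INPUT in blue, open circles for number 2, triangles for number 4 and bars for group means. In Cry1 and Cry2 both IP points lie above both INPUT points, in Clock and Per3 both lie below, and Per1 and Per2 show triangles above circles in both groups.

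The activator genes moved in opposite directions. Clock, a basic helix-loop-helix PAS protein with reported acetyltransferase activity, had 7188 and 8250 counts in IP 2 and IP 4, or 189 and 191 CPM, against 11705 and 11553 counts in INPUT 2 and INPUT 4, or 258 and 267 CPM. The libraries of each group were close together and the groups did not overlap. Clock was 1.38-fold lower in IP, at -0.46 on the log2 scale (SE 0.09, edgeR adjusted p = 0.000323). Clock (ENSMUSG00000029238.11) spans chr5:76209868-76304792, minus strand. Its longest transcript, at 9744 bases, is the longest among the clock genes, and its GC content, at 40.9%, the lowest. Across the genes with an annotated length and GC content, the trend at that length and GC content was a log2 fold change of -0.24, and with the trend removed Clock stood at -0.23 (adjusted p = 0.0462).

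Arntl, the partner of Clock and the only single gene of the loop whose loss stops behavioural rhythms in mice, had 1315 and 1667 counts in IP 2 and IP 4, or 34.6 and 38.6 CPM. It had 1315 and 1154 counts in INPUT 2 and INPUT 4, or 28.9 and 26.7 CPM. The groups did not overlap. Arntl rose by 0.40 on the log2 scale (SE 0.12, edgeR adjusted p = 0.0136). It was 0.33 and not called without IP 4 (adjusted p = 0.0892), and 0.35 and not called without INPUT 4 (adjusted p = 0.0899). Arntl (ENSMUSG00000055116.8) spans chr7:113207465-113314126, plus strand.

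The REV-ERB repressors showed small differences. Nr1d1 had 2458 and 2938 counts in IP 2 and IP 4, or 64.7 and 68.0 CPM, against 2648 and 3137 counts in INPUT 2 and INPUT 4, or 58.3 and 72.5 CPM. Both IP libraries fell between the INPUT libraries. The difference was 0.02 on the log2 scale (SE 0.11, edgeR adjusted p = 0.897). Nr1d1 (ENSMUSG00000020889.11) spans chr11:98767932-98775333, minus strand, and Thra, the thyroid hormone receptor alpha gene on the opposite strand, shares 263 bases of its exons, or 8.55%. Whether counting used strand is not stated, so reads from that stretch are uncertain. Thra itself did not pass, at -0.18 (edgeR adjusted p = 0.123), with 305 and 279 CPM in IP, against 337 and 321 CPM in INPUT.

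Nr1d2 had 3179 and 4090 counts in IP 2 and IP 4, or 83.7 and 94.6 CPM, against 3157 and 3356 counts in INPUT 2 and INPUT 4, or 69.5 and 77.5 CPM. The groups did not overlap, but the gap between them was smaller than the difference between the libraries of either group. The log2 fold change was 0.28 (SE 0.11, edgeR adjusted p = 0.0377). It was 0.20 and not called without IP 4 (adjusted p = 0.233), 0.21 and not called without INPUT 2 (adjusted p = 0.248), and 0.23 with a stricter filter on low counts (adjusted p = 0.0758). Nr1d2 (ENSMUSG00000021775.11) spans chr14:18204054-18239127, minus strand. Of its longest transcript 29.6% matches the gene model AC170187.1 at 95% identity or more, and how many reads were lost to that match was not measured.

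Dbp, a bZIP factor of the PAR family and a direct target of the activator pair, was the scarcest of the 10. It had 253 and 315 counts in IP 2 and IP 4, or 6.66 and 7.29 CPM, against 215 and 308 counts in INPUT 2 and INPUT 4, or 4.73 and 7.12 CPM. INPUT 4 lay between the IP libraries, so the groups overlapped. The log2 fold change was 0.24 (SE 0.23, edgeR adjusted p = 0.422). Dbp (ENSMUSG00000059824.12) spans chr7:45705088-45710203, plus strand, and shares 539 bases, or 18.0%, of its exons with Sphk2, a sphingosine kinase gene on the opposite strand, which rose by 0.39 (SE 0.14, edgeR adjusted p = 0.0337). Of the longest Dbp transcript 29.5% coincides with Sphk2, and reads from that stretch are uncertain.

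The promoters of 4 called clock genes that hold clock motifs are shown, 3 of genes that rose and 1 of a gene that fell. Clock, which fell, and Nr1d2, which rose, also hold a motif and are not shown, so the 4 are a selection. Each is the stretch up to 250 bases before a RefSeq start on GRCm38.p6 that lies outside annotated exons. It is read 5′ to 3′ on the gene's strand, with motifs in capitals. Per1 has another RefSeq start, and the window before it, chr11:69099902-69100151, held none of the motifs. Cry1 is chr10:85185065-85185304 on the minus strand, Per1 is chr11:69098699-69098947 on the plus strand, Cry2 is chr2:92434070-92434319 on the minus strand, and Per3 is chr4:151044666-151044915 on the minus strand.
Cry1: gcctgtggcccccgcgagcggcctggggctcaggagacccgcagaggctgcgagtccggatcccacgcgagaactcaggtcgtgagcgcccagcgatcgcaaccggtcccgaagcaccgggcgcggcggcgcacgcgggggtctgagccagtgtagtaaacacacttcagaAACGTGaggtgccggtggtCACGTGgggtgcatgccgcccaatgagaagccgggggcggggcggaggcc
Per1: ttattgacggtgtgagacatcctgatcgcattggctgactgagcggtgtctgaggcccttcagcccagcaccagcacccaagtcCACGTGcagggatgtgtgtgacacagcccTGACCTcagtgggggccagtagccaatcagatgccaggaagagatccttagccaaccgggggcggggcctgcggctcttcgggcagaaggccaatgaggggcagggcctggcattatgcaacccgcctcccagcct
Cry2: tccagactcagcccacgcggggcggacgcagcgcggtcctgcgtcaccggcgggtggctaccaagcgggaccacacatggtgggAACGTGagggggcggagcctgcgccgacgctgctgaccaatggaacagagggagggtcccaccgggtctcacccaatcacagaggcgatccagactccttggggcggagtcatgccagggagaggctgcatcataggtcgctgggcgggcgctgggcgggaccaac
Per3: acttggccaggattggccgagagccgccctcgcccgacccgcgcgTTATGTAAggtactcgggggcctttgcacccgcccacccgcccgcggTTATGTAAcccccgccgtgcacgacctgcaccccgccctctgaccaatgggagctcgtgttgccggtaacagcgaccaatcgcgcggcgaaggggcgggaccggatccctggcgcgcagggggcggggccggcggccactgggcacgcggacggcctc

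Both strands were searched for 4 motifs. The first was the E-box, CACGTG, to which the pair of CLOCK and ARNTL binds. Its noncanonical form was searched as CACGTT, which on the opposite strand is written as it stands in the Cry1 and Cry2 lines. The D-box was searched as TTATGTAA, the sequence to which DBP and its relatives bind. The core to which ROR and REV-ERB proteins bind was searched as AGGTCA and stands reversed and complemented in the Per1 line. These motifs do not overlap each other in the promoters shown. In Cry1 the noncanonical E-box spans positions -79 to -74 and the E-box -60 to -55 relative to the start. In Per1 the E-box spans -166 to -161 and the ROR core -137 to -132. The noncanonical E-box of Cry2 spans -166 to -161, and the pair of D-boxes in Per3 spans -205 to -198 and -158 to -151. The table of promoters held 9 of the 10 clock genes, all but Per2. The E-box was in 2 of the 9 (Per1 and Cry1) and in 6.86% of all 27025 genes in windows of the same length. The noncanonical form was in 3 of the 9 (Cry1, Cry2 and Nr1d1) and in 4.50% of all genes. The D-box was in 1 of the 9 (Per3) and in 0.977% of all genes, and the ROR core was in 3 of the 9 (Per1, Clock and Nr1d2) and in 15.8%. A gene counted if the window before any of its starts held the motif, and at other starts of Clock there was none. A match is a description of letters, and these data hold no measure of binding.

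Per length, Cry2 stood first in both groups and Dbp last, but 29.5% of the longest Dbp transcript coincides with Sphk2. How many reads were lost there was not measured, so the place of Dbp is uncertain. Levels were divided by the longest annotated transcript to give CPM per kilobase. In IP the order was Cry2 at 77.5 ± 2.56, Per1 at 41.5 ± 7.64, Nr1d1 at 24.4 ± 0.853, Clock at 19.5 ± 0.123 and Nr1d2 at 19.1 ± 1.66 CPM per kilobase (SD, n = 2 each). Cry1 at 10.1 ± 0.201, Arntl at 9.16 ± 0.701, Per2 at 6.72 ± 1.64, Per3 at 5.25 ± 0.541 and Dbp at 3.80 ± 0.242 CPM per kilobase followed in IP. Of these neighbours, Clock and Nr1d2 overlapped between libraries, and so did Per2 and Per3.

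In INPUT the order was Cry2 at 46.7 ± 4.70, Clock at 26.9 ± 0.683, Nr1d1 at 24.0 ± 3.70, Per1 at 23.4 ± 3.80 and Nr1d2 at 15.8 ± 1.23 CPM per kilobase (SD, n = 2 each). Per3 at 7.13 ± 0.0401, Arntl at 6.96 ± 0.402, Per2 at 5.39 ± 1.60, Cry1 at 4.71 ± 0.131 and Dbp at 3.22 ± 0.919 CPM per kilobase followed. There the libraries of Clock and Nr1d1, Nr1d1 and Per1, Per3 and Arntl, and Per2 and Cry1 overlapped. Cry1 thus held rank 6 in IP and rank 9 in INPUT, and Per1 rank 2 in IP and rank 4 in INPUT. Divided by all annotated exons instead, Cry1 held rank 6 in IP and rank 8 in INPUT, Per1 rank 2 in IP and rank 3 in INPUT, and Clock rank 5 in IP and rank 4 in INPUT.

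Ratios between partners, per kilobase, did not overlap between the IP and INPUT libraries in the pairs that follow, a description for which no test was run. The ratio of Cry1 to Cry2 was 0.131 and 0.129 in IP 2 and IP 4, against 0.107 and 0.0961 in INPUT 2 and INPUT 4, so Cry2 predominated in every library. The ratio of Per3 to Per1 was 0.135 and 0.120 in IP and 0.345 and 0.272 in INPUT. The ratio of Arntl to Clock was 0.446 and 0.493 in IP, against 0.274 and 0.244 in INPUT. Npas2, a paralog of Clock that pairs with ARNTL in forebrain, stood to Clock at 1.24 and 1.11 in IP and at 0.693 and 0.605 in INPUT. Per kilobase of the longest transcript Npas2 was therefore above Clock in both IP libraries and below it in both INPUT libraries. That ratio was not computed with all annotated exons. With length and GC content corrected for, the log2 fold changes were 0.31 for Npas2 and -0.23 for Clock, against 0.39 and -0.46 as reported. The ratios of Per2 to Per1 and of Nr1d1 to Nr1d2 were 0.161 ± 0.00988 and 1.28 ± 0.0665 in IP, and 0.228 ± 0.0316 and 1.52 ± 0.116 in INPUT (SD, n = 2 each). By library, Per2 to Per1 was 0.154 and 0.168 in IP, against 0.205 and 0.250 in INPUT. Nr1d1 to Nr1d2 was 1.33 and 1.23 in IP, against 1.44 and 1.60 in INPUT. In both of these pairs the gap between the groups was smaller than the difference between the INPUT libraries.

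Some clock genes differed between the libraries numbered 4 and 2, in IP and INPUT alike. Per2 was 1.42-fold higher in IP 4 than in IP 2 and 1.53-fold higher in INPUT 4 than in INPUT 2. Of 10680 other genes whose mean reached 5 CPM, 7 (0.0655%) were at least as far apart in that direction in both groups. Per1 was 1.30-fold and 1.26-fold higher in the libraries numbered 4, with 61 other genes (0.571%) at least as far apart. On the log2 scale Dbp was higher by 0.13 in IP and 0.59 in INPUT, and Nr1d1 by 0.07 in IP and 0.32 in INPUT, with 25 (0.234%) and 286 (2.68%) other genes at least as far apart. Cry1 and Clock were nearly level, at 1.03-fold and 1.04-fold for Cry1 and 1.01-fold and 1.04-fold for Clock.

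In all, 8 of the 10 were higher in number 4 in both groups, as were 29.8% of genes whose mean reached 5 CPM, while Arntl and Per3 differed in direction between the groups. Arntl was 1.11-fold higher in IP 4 than in IP 2, and INPUT 4 stood at 0.922 times INPUT 2. With 1 library per number and group, these values carry no test. On the log2 scale Per2 had the widest gap of the 10 between libraries in each group.

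**Figure D4:**
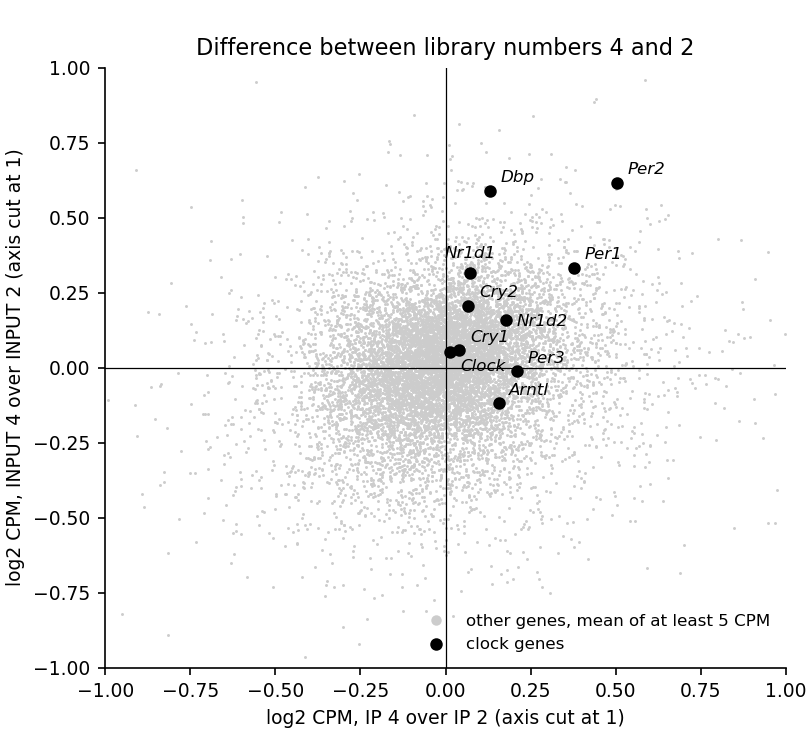
Log2 ratio of number 4 over number 2 in IP (horizontal axis) and in INPUT (vertical axis), both cut at 1, for genes whose mean reached 5 CPM (grey) and the 10 clock genes (black). Per2, at 0.50 and 0.62, lies farthest toward the upper right of the clock genes, with Per1 and Dbp next, and Clock and Cry1 lie near 0.

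The wider clock list held 42 genes that act on or with the 10, of which 15 rose, 11 fell and 16 did not pass. Over all genes tested 23.4% were higher and 22.4% lower, and in the abundance range of the clock genes 34.0% and 20.6%. Nothing particular to the list is read from these counts. The median log2 fold change of the 42 was 0.14. With library sizes alone 8 of the 42 were higher and 15 lower, so the balance between directions depends on the scaling. Rorb and Rora, which encode ROR activators of Arntl that act through the sites REV-ERB proteins repress, both fell. Rorb stood at 146 and 161 CPM in IP 2 and IP 4, against 277 and 320 CPM in INPUT 2 and INPUT 4, and fell by 0.96 (SE 0.10, edgeR adjusted p = 3.02e-07). Rora stood at 168 and 164 CPM in IP, against 239 and 244 CPM in INPUT, at -0.54 (SE 0.09, edgeR adjusted p = 7.50e-05). With length and GC content corrected for, Rora stood at -0.28 (adjusted p = 0.0152). Rorb is also a marker of layer 4 neurons.

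The activator paralogs Npas2 and Arntl2 moved against their counterparts, Clock and Arntl. Npas2 rose by 0.39 (SE 0.10, edgeR adjusted p = 0.00441) and was not called with library sizes alone, at 0.13 (adjusted p = 0.307). Arntl2, a paralog of Arntl, fell by 1.17 (SE 0.28, edgeR adjusted p = 0.00205) with 2.34 and 3.15 CPM in IP, against 7.59 and 4.81 CPM in INPUT, and was not called without INPUT 2, at -0.80 (adjusted p = 0.0732). Of the D-box factors, Hlf, a relative of Dbp, fell by 0.52 (SE 0.09, edgeR adjusted p = 0.000115), with 497 ± 42.8 CPM over the IP libraries and 713 ± 32.6 CPM over the INPUT libraries (SD, n = 2 each). Per kilobase Hlf stood at 88.1 ± 7.58 in IP and 126 ± 5.78 in INPUT (SD, n = 2 each), far above Dbp. Their antagonist Nfil3 rose by 0.45 (SE 0.16, edgeR adjusted p = 0.0293), a call lost without IP 4 (0.30, adjusted p = 0.233), without INPUT 2 (0.48, adjusted p = 0.0641) and without INPUT 4 (0.43, adjusted p = 0.0958). Nfil3 was also not called with library sizes alone (0.19, adjusted p = 0.356) or with the length and GC correction (0.27, adjusted p = 0.183). Ciart, a further repressor of the activator pair, rose by 0.74 (SE 0.16, edgeR adjusted p = 0.000909; 0.48 with library sizes alone), to 18.0 and 16.9 CPM in IP, against 11.2 and 9.80 CPM in INPUT.

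Of 11 genes for kinases of clock proteins 4 rose and 7 did not pass, beside 34.0% higher among genes in the abundance range of the clock genes. Csnk1d, a casein kinase that phosphorylates PER proteins, rose by 0.56 (SE 0.09, edgeR adjusted p = 6.77e-05) and with library sizes alone by 0.30. Csnk2b, the regulatory subunit of casein kinase 2, rose by 0.50 (SE 0.16, edgeR adjusted p = 0.0175). Csnk2b stood at 0.33 without INPUT 4, and was not called with library sizes alone (0.24, adjusted p = 0.243). Of 6 genes for parts of ubiquitin ligases and for deubiquitinases 3 rose, 2 of them the deubiquitinase genes Usp2 and Usp7, at 0.41 and 0.25 (edgeR adjusted p = 0.00262 and 0.0369), and 1 fell. With library sizes alone Usp7 stood at -0.0135. Btrc, which recognises phosphorylated PER, rose by 0.54 (SE 0.10, edgeR adjusted p = 0.000126) and with library sizes alone by 0.29, and Fbxl21, which ubiquitinates CRY, fell by 0.74 (SE 0.20, edgeR adjusted p = 0.00440). Antisense or overlapping genes are annotated at Rora, Csnk1d, Csnk2b, Btrc, Usp2 and Ep300, and their counts are uncertain there.

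Of 9 cofactor genes 3 rose and 3 fell, beside 34.0% higher and 20.6% lower among genes in the abundance range of the clock genes. The largest changes of the 9 were in the acetyltransferase genes Crebbp and Ep300, which fell, at -0.76 (SE 0.09, edgeR adjusted p = 2.12e-06) and -0.72 (SE 0.10, edgeR adjusted p = 1.17e-05). Tipin, the partner of Timeless, fell by 0.44 (SE 0.17, edgeR adjusted p = 0.0389), a call lost without IP 2 (-0.36, adjusted p = 0.159), without INPUT 2 (-0.35, adjusted p = 0.239), without INPUT 4 (-0.52, adjusted p = 0.0554) and with DESeq2 (-0.43, adjusted p = 0.0802). Among 3 clock-controlled outputs, Ccrn4l, the deadenylase-like gene nocturnin, rose by 0.67 (SE 0.11, edgeR adjusted p = 5.23e-05) and Nampt, an enzyme of NAD synthesis, by 0.65 (SE 0.11, edgeR adjusted p = 0.000110). With library sizes alone they rose by 0.41 and 0.39. Wee1, a cell cycle kinase, fell by 0.30 (SE 0.11, edgeR adjusted p = 0.0306) and is named to complete the count.

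Genes of the activity response were set beside Per1, which shares induction by cyclic AMP and calcium with them. Of 12 such genes 7 rose and 5 did not pass, beside 23.4% higher among all genes tested and 34.0% among those in the abundance range of the clock genes. Nr4a1 stood at 301 and 288 CPM in IP, against 143 and 133 CPM in INPUT, and rose by 1.09 (SE 0.09, edgeR adjusted p = 2.66e-08). Fos rose by 0.74 (SE 0.11, edgeR adjusted p = 2.59e-05) and Junb by 0.67 (SE 0.12, edgeR adjusted p = 0.000171), though 7.52% of the exon bases of Junb are shared with Prdx2 on the opposite strand. Egr1 did not pass, at -0.19 (edgeR adjusted p = 0.100). Fos stood at 64.9 and 74.8 CPM in IP 2 and IP 4, and at 42.1 and 41.8 CPM in INPUT 2 and INPUT 4, so it was not higher in number 4 in both groups. Of the 12, 5 were higher in number 4 in both groups, 4 were lower in both and 3 differed in direction. Fosb, singled out after its values were seen, was higher in number 4 in both, at 31.4 and 47.0 CPM in IP 2 and IP 4, against 34.2 and 41.8 CPM in INPUT 2 and INPUT 4, and did not pass the test between groups (0.05, edgeR adjusted p = 0.828).

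Markers of cell classes moved between the groups too, where 23.4% of all genes tested were called higher and 22.4% lower. All 5 excitatory markers rose, with summed levels of 5200 and 5470 CPM in IP and 3656 and 3942 CPM in INPUT. Of 5 astrocyte markers 3 rose and 1 fell, with sums of 937 and 1032 CPM in IP and 683 and 679 CPM in INPUT. Aldoc carried that difference, and the other 4 summed to 229 and 250.3 CPM in IP and 248 and 265 CPM in INPUT. Of 5 oligodendrocyte markers 4 fell, with sums of 890.0 and 916 CPM in IP and 1415 and 1314 CPM in INPUT. The 5 microglial markers summed to 37.2 and 41.5 CPM in IP and 39.9 and 36.6 CPM in INPUT, of which Csf1r rose by 0.75 (edgeR adjusted p = 0.000875), P2ry12 and Tmem119 fell and 2 did not pass. None of the 5 endothelial markers passed, and they summed to 4.87 and 5.92 CPM in IP and 10.4 and 6.35 CPM in INPUT. Of 5 pan-neuronal markers 4 rose, of 5 inhibitory markers 2 fell, of 5 mural and fibroblast markers 1 rose and 1 fell, and of 3 markers of oligodendrocyte precursors 1 rose and 1 fell. The mural and fibroblast markers summed to 117 and 102 CPM in IP and 43.3 and 36.7 CPM in INPUT. Among them Dcn rose by 2.96 (edgeR adjusted p = 1.16e-12) and Col1a1 fell by 1.73 (edgeR adjusted p = 0.0115). Of 3 ependymal and choroid plexus markers 1 fell, and both erythroid markers fell. Their part in the differences of the clock genes was not tested. Of 9 genes that mark the suprachiasmatic nucleus, the master clock of the hypothalamus, 4 passed the filter on low counts. Nms and Six6 had 0 counts in all 4 libraries. Avp had 0 and 0 counts in IP, against 3 and 2 in INPUT, and Lhx1 0 and 2 counts in IP, against 0 and 0 in INPUT. Prok2 had 3 and 4 counts in IP, against 10 and 0 in INPUT. Vip had 288 and 386 counts in IP, against 297 and 357 in INPUT, and did not pass the test. Neither did Prokr2, with 201 and 213 counts in IP, against 155 and 151 in INPUT, nor Vipr2, with 43 and 22, against 40 and 27. Rgs16, which is not confined to that nucleus, rose by 0.93 (edgeR adjusted p = 0.000188), with 14.8 and 15.2 CPM in IP, against 7.42 and 8.32 CPM in INPUT.

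The genes whose levels over the 4 libraries were most like those of Cry1, by distance of centred log2 CPM among 10119 named genes whose mean reached 5 CPM, were Slit3 (distance 0.00594), Abcf1 (0.0296) and Cx3cl1 (0.0452). Those most like Clock were Nfib (distance 0.0207), Taok1 (0.0265) and Slc41a1 (0.0292). With 4 libraries in 2 groups, such likeness rests mainly on the fold change and its spread.

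Across 12 alternatives the directions of Clock, Per1, Per3, Cry1 and Cry2 held, and their fold changes ranged from -0.72 to -0.23 for Clock, 0.57 to 1.02 for Per1, -0.70 to -0.32 for Per3, 0.84 to 1.13 for Cry1 and 0.47 to 0.85 for Cry2. Clock, Per1, Cry1 and Cry2 were called in all 12, Per3 in 11, Arntl in 9, Nr1d2 in 8 and Per2 in 4. Nr1d1, from -0.24 to 0.20, and Dbp, from -0.02 to 0.57, were on both sides of 0 and were called in none of the 12, with lowest adjusted p of 0.0853 and 0.115. These 12 include the fits without 1 library, which leave 1 library in a group, so calls under them carry less weight. Tested against a log2 fold change of 1, no clock gene was called.

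**Figure D5:**
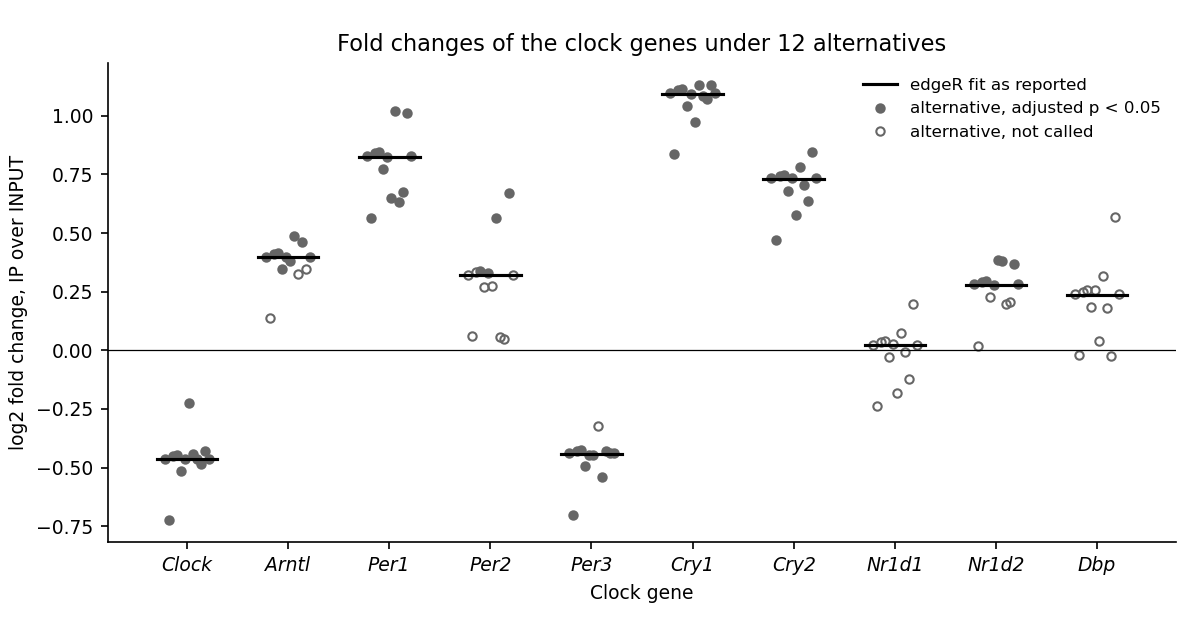
Log2 fold change of IP over INPUT (vertical axis) of each clock gene in the edgeR fit as reported (black line) and under 12 alternatives (points, filled where the adjusted p was under 0.05). Cry1 spans 0.84 to 1.13, whereas Nr1d1 and Dbp have only open points and cross 0.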

How the data were processed

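The authors deposited whole-number read counts per gene, 1 file a library, not normalised. Their processing notes name STAR 2.0.0e, HTSeq and mm10; no source used here gives the annotation, strand setting or kit. Lines that name no gene (45.9% and 47.1% of records in IP, 52.0% and 49.2% in INPUT) were left out. Records that overlapped no annotated feature made up 7.31% and 7.54% of all records in IP, against 14.9% and 13.5% in INPUT. Ambiguous records made up 1.54% in each IP library, against 5.07% and 5.09% in INPUT. The part of these differences in the fold changes was not tested. From the deposited counts edgeR 4.0.16 (R 4.3.3) computed TMM factors, a filter (filterByExpr, minimum count 10 and minimum total 15) and a two-sided quasi-likelihood test, IP over INPUT, on 16600 genes. Libraries of a group differed beyond sampling noise (chi-square per degree of freedom 22.5 in IP and 15.2 in INPUT). Coordinates, lengths and overlaps came from GENCODE vM21 (GRCm38), which 23161 names matched by symbol and 773 by synonym, and copies from blastn 2.17.0. Motifs were searched in RefSeq promoters. All 10 clock genes are named, and of the wider list, per role, up to 2 called genes with the largest change and mean CPM of 1 or more. Usp2, Usp7 and Wee1 are named besides, as are some genes that changed sign with the scaling. Genes and lists were chosen with earlier results of these data known. The fit was tested on simulated data. Figures used matplotlib 3.10.9.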

Additional observations from a re-analysis of the deposited data

How the results depend on the processing

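Results were recomputed with DESeq2 1.42.0, with its size factors in edgeR, with library sizes alone, without the filter, with a stricter one, against a minimum log2 fold change of 1, with a correction for length and GC content, with the library number as a replicate block, without each library in turn, and without Rn45s and 5 genes that take a large share of IP counts, the last being added after seeing the data. With library sizes alone, 3 clock genes, 8 wider list genes and 2151 of all genes were called higher, and 2, 15 and 5910 lower, against 5, 15 and 3886 higher and 2, 11 and 3719 lower as reported. Against a log2 fold change of 1, edgeR called 0 clock genes and 0 wider list genes in either direction (0 and 1 at an unadjusted p under 0.05), and 172 of all genes higher and 675 lower. Without 1 library, 3 to 6 clock genes were called higher and 1 to 2 lower, and 12 to 15 wider list genes higher and 8 to 9 lower. Over all genes these counts were 3323 to 3720 higher and 2670 to 3421 lower. Each fit without 1 library leaves 1 library in a group, so those counts do not measure the spread of that group. In the wider list Usp7 turned to -0.0135 and Kdm5a, which shares exon bases with Ccdc77, to -0.25 with library sizes alone. Among others that changed sign under that scaling, Bhlhe40 stood at -0.09, Bhlhe41 at -0.10 and Csnk2a1 at -0.25, none of them called. The cause of these changes was not tested, except that the minimum fold change is a stricter test by construction. The labels do not say that a number marks a shared mouse, and deviations of same-numbered libraries correlated at 0.19 across genes, which are not independent. With the replicate block 6 clock genes were called higher, Per2 being added at 0.33 (adjusted p = 0.00883), and 2 lower, and 4314 of all genes higher and 4037 lower. Dbp had the fewest counts of the 10, 215 to 315 a library.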
